A study of Mus musculus with 6 samples.

Results

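Macrophage marker genes were followed in RNA of primary mouse dermal fibroblast cultures. The members were 34 gene symbols listed as macrophage markers, and 30 of them were found among the 13706 genes of the deposited table. The remaining 4, Cd74, Cd163, H2-Aa and Cx3cr1, are not analysed here. The 6 libraries formed 3 groups of 2. The KO + H-151 cells carried the R26-CAG-CreER transgene with floxed alleles of both Yap1 and Wwtr1, the genes of the coactivators YAP and TAZ, and received 1 µM H-151, an inhibitor of the DNA-sensing adaptor STING. The KO cells had the same genotype and no H-151. The control cells had Yap1 fl/fl and Wwtr1 fl/fl without a Cre. All 3 groups were kept for 72 hr with 1 µM 4OH-tamoxifen in DMEM-F12 with fetal bovine serum, and the treatment text spells the inhibitor once as H-15. The CAG promoter at ROSA26 is active in nearly all cell types and is not specific to fibroblasts. Since the control had no Cre, the effects of Cre itself and of the loss of YAP and TAZ cannot be told apart in KO against control. None of the groups analysed here held H-151 without the knockout.

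Macrophages are phagocytes that reside in the dermis and can survive in fibroblast cultures, because fibroblasts release CSF1, the growth factor that their receptor CSF1R binds. Their identity rests on the transcription factor PU.1, and they carry Fc receptors, complement C1q, lysosomal proteases and the phagocyte oxidase. Some of these genes also respond to interferon, and some, such as Cd68, Cd14 and Ctss, are also made by other cells. In bulk RNA fewer or more cells of a type and less or more RNA per cell cannot be told apart.

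RNA was read by QuantSeq, a method that counts tags at the 3′ ends of polyadenylated transcripts, with 12444986 to 15308100 reads per library in the listed genes. Levels are scaled CPM, reads divided by a library size that the authors adjusted, and 1 read was worth 0.0625 to 0.0871 scaled CPM. Changes are log2 differences ± SE on the log2(scaled CPM + 1) scale, which understates the change of low genes, tested with limma over 13648 genes with Benjamini-Hochberg adjustment and a threshold of 0.05. All 30 markers passed the filter on low values. Nothing in the labels says that libraries of a group were separate cultures or animals, and each p-value reflects the spread among these libraries alone, which may be technical. Wwtr1 had 3.07 and 4.00 scaled CPM in KO + H-151 and 4.79 and 5.03 in KO, against 213 and 218 in control. Yap1 had 45.3 and 42.4 scaled CPM in KO + H-151, 66.4 and 68.3 in KO and 122 and 128 in control. All 12 fibroblast markers examined were present, led by Col1a2 with 10473 and 9749 scaled CPM in KO + H-151, 16106 and 15874 in KO and 12677 and 13328 in control.

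Most macrophage markers were higher in KO + H-151 than in both other groups. Against KO, 25 of the 30 rose, 2 fell (Fcgr1 and H2-Ab1) and 3 did not pass the test (Fcgr2b, Pld4 and Ms4a6d), where 19.4% of all genes tested rose and 21.4% fell. Against control, 26 rose, 1 fell (H2-Ab1) and 3 did not pass the test (Fcgr1, Pld4 and Cd14), where 11.5% of all genes rose and 11.4% fell. KO against control was mixed, with 9 markers higher, 3 lower and 18 not past the test, where 18.2% of all genes rose and 14.2% fell. The median log2 change of the markers was 1.11 in KO + H-151 against KO (all genes 0.015), 1.23 in KO + H-151 against control (all genes 0.00048) and 0.14 in KO against control (all genes -0.0087). In KO against control the sign of the median reversed to -0.012 when values were scaled to total counts, a scaling that itself moved the median of all genes to -0.16. The comparisons with KO share the KO libraries and those with control share the control libraries, so their values are given side by side and are not independent of each other.

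**Figure D1:**
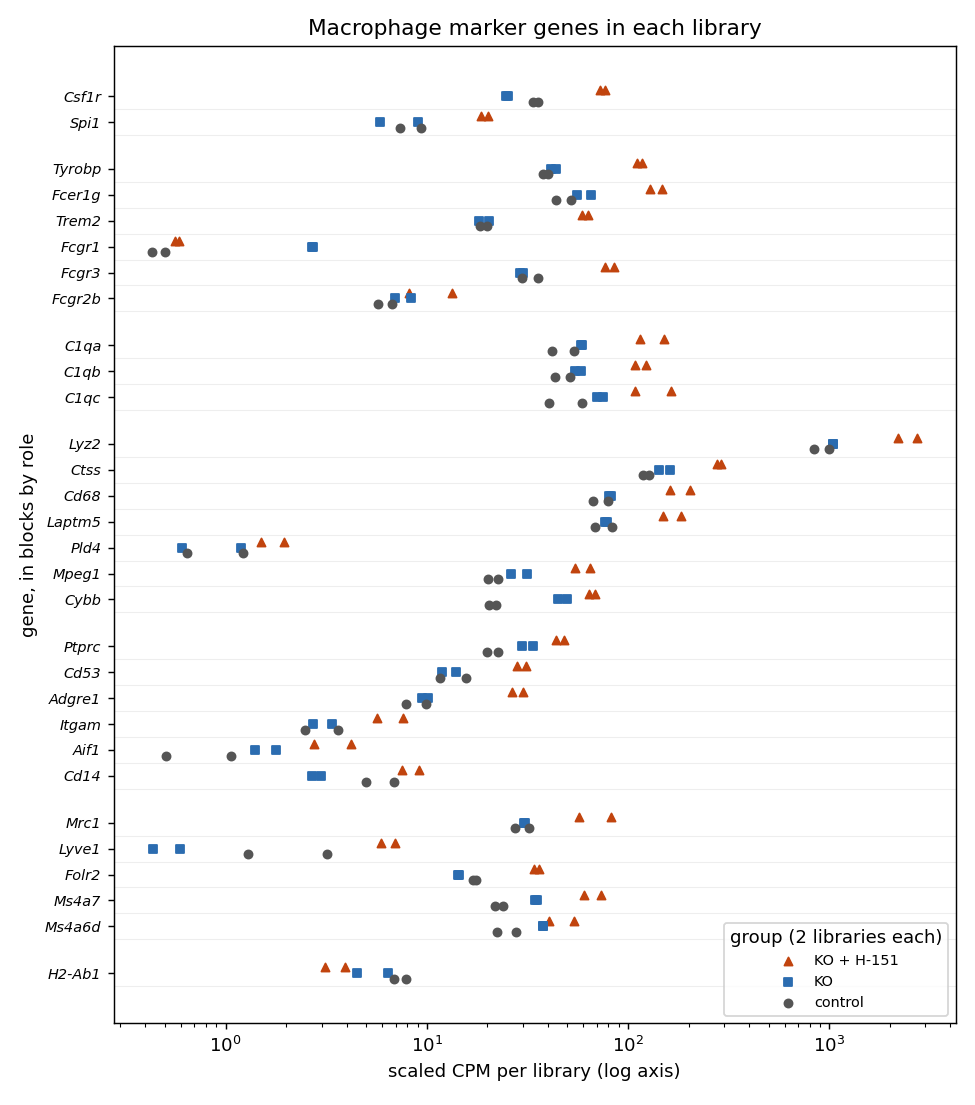
Level of each of the 30 macrophage markers in scaled CPM on a log axis, 1 point per library, with genes down the page in blocks by role and 2 libraries for each group (triangles KO + H-151, squares KO, circles control). Both KO + H-151 libraries lie to the right of both KO libraries in 27 of the 30 genes, where 35.5% of all genes tested did so. They lie to the right of both control libraries in 29 of the 30, where 29.5% of all genes tested did so.

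The lineage genes were considered first. Csf1r, which encodes the receptor for CSF1 and IL-34, had 76.5 and 72.9 scaled CPM in KO + H-151, 24.6 and 25.5 in KO and 35.9 and 33.7 in control. The KO libraries were the lowest and the KO + H-151 libraries the highest, with no overlap between groups. Csf1r thus rose with H-151 against KO (log2 1.54 ± 0.089, adjusted p = 5.94e-10, limma), whereas in KO against control it fell (log2 -0.46 ± 0.089, adjusted p = 0.000783). Spi1, which encodes PU.1, had 18.7 and 20.1 scaled CPM in KO + H-151, 9.05 and 5.88 in KO and 9.40 and 7.35 in control. Its KO and control libraries overlapped, while both KO + H-151 libraries lay above them (log2 1.29 ± 0.18 against KO, adjusted p = 2.44e-05, limma). Exons of Csf1r overlap those of Hmgxb3 on the opposite strand, and the strand setting of the counting is not given in the sources used here. Hmgxb3 had 22.9 and 23.6 scaled CPM in KO + H-151, 18.3 and 21.7 in KO and 23.4 and 24.7 in control.

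Of the 6 adaptors and activating or inhibitory receptors, 4 rose in KO + H-151 against KO. Tyrobp encodes DAP12, the adaptor through which TREM2 signals, and had 117 and 111 scaled CPM in KO + H-151, 43.8 and 41.5 in KO and 39.9 and 38.0 in control. Trem2, a receptor for lipids and lipoproteins, had 63.0 and 59.3 scaled CPM in KO + H-151, 20.5 and 18.1 in KO and 18.3 and 19.9 in control. Both were near the control level in KO and well above it with H-151, with log2 changes against KO of 1.40 ± 0.081 for Tyrobp (adjusted p = 6.34e-10, limma) and 1.62 ± 0.11 for Trem2 (adjusted p = 2.73e-09). Fcer1g encodes the gamma chain shared by activating Fc receptors and had 148 and 129 scaled CPM in KO + H-151, 55.7 and 65.2 in KO and 52.0 and 43.9 in control. Fcgr3, a low-affinity receptor for immunoglobulin G, had 85.3 and 77.1 scaled CPM in KO + H-151, 28.9 and 30.1 in KO and 35.7 and 29.7 in control. Each rose in KO + H-151 against KO, Fcer1g by 1.18 ± 0.10 and Fcgr3 by 1.43 ± 0.10 on the log2 scale. The inhibitory receptor Fcgr2b had 13.3 and 8.19 scaled CPM in KO + H-151, 6.96 and 8.35 in KO and 6.69 and 5.69 in control. One of its KO + H-151 libraries lay between the KO libraries, and the change against KO did not pass the test (log2 0.41 ± 0.20, adjusted p = 0.111, limma), though it did without the second KO + H-151 library (log2 0.73, adjusted p = 0.00681). Against control Fcgr2b rose in KO + H-151 (0.68 ± 0.20, adjusted p = 0.0209), a call lost without the second control library (0.58, adjusted p = 0.154), without the first KO + H-151 library (0.36, adjusted p = 0.269) and with an untrended prior variance (adjusted p = 0.0894).

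Fcgr1 encodes the high-affinity immunoglobulin G receptor CD64, known as interferon-inducible, and behaved unlike its subunit partner Fcer1g. It had 0.588 and 0.563 scaled CPM in KO + H-151, 2.70 and 2.73 in KO and 0.498 and 0.432 in control. These levels rest on 9 and 9 reads in KO + H-151, 31 and 32 in KO and 7 and 6 in control. Only the KO libraries reached 1 scaled CPM, so Fcgr1 entered the test through the group in which it was highest, and its calls are no independent evidence of that difference. Both KO libraries stood far above the other 4. Fcgr1 rose in KO against control (log2 1.34 ± 0.21, adjusted p = 0.000111, limma) and fell in KO + H-151 against KO (log2 -1.24 ± 0.21, adjusted p = 0.000198). In linear terms KO had 5.83 times the control level and KO + H-151 had 0.212 times the KO level. The difference of KO + H-151 from control did not pass the test (log2 0.11 ± 0.21, 95% interval -0.35 to 0.56). Fcgr4, a related receptor gene, had 2.16 and 1.69 scaled CPM in KO + H-151, 5.83 and 3.15 in KO and 1.35 and 0.721 in control, also highest in KO.

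The complement C1q genes encode the 3 chains of the molecule that starts the classical complement pathway, and macrophages are its main source. The genes lie side by side on the minus strand of chromosome 4 (GRCm38, 136880129 to 136898803). C1qa had 151.045 and 115 scaled CPM in KO + H-151, 59.0 and 58.4 in KO and 54.0 and 42.2 in control. C1qb had 122 and 108 scaled CPM in KO + H-151, 54.7 and 58.6 in KO and 51.6 and 43.6 in control. C1qc had 165 and 108 scaled CPM in KO + H-151, 70.2 and 74.9 in KO and 59.0 and 40.3 in control. All 3 chains had the order KO + H-151, KO, control in every library, with log2 changes of 1.15 ± 0.12, 1.01 ± 0.093 and 0.87 ± 0.16 in KO + H-151 against KO, each past the test. In KO against control, C1qc alone passed (log2 0.56 ± 0.16, adjusted p = 0.0134, limma), while C1qa (0.29 ± 0.12, adjusted p = 0.0715) and C1qb (0.25 ± 0.093, adjusted p = 0.0501) did not. The C1qc call was lost without the second control library (log2 0.29, adjusted p = 0.237), without the first KO library (0.61, adjusted p = 0.0937) and without the second KO library (0.52, adjusted p = 0.156), and with DESeq2 (0.56, adjusted p = 0.2405). C1qa and C1qb passed in a fit of the 2 groups (adjusted p = 0.0177 and 0.0293, limma), without the first control library (0.016 and 0.0203), without the first KO + H-151 library (0.0137 and 0.0232) and without the second (0.0128 and 0.0224).

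Lysosomal and killing genes carried most of the marker reads, since Lyz2 alone, which encodes the lysozyme of macrophages and neutrophils, held 55.2% of them in KO + H-151, 52.2% in KO and 53.1% in control on average. Lyz2 had 2740.0 and 2199 scaled CPM in KO + H-151, 1042 and 1044 in KO and 995 and 841 in control. It rose in KO + H-151 against KO (log2 1.23 ± 0.096, adjusted p = 2.78e-08, limma), and the change in KO against control did not pass the test (0.19 ± 0.096, adjusted p = 0.151), though it did without either KO + H-151 library (adjusted p = 0.0325 and 0.0332). Reads of its near-identical copy Lyz1 may be split with it, and Lyz1 had 39.6 and 31.5 scaled CPM in KO + H-151, 13.0 and 11.7 in KO and 17.2 and 14.1 in control. Cd68, a lysosomal membrane glycoprotein, had 202 and 162 scaled CPM in KO + H-151, 80.4 and 82.3 in KO and 79.3 and 67.3 in control. Laptm5, another lysosomal membrane protein of blood cells, had 184 and 149 scaled CPM in KO + H-151, 76.7 and 78.3 in KO and 83.7 and 68.7 in control. Both rose with H-151, by 1.14 ± 0.099 and 1.09 ± 0.10 on the log2 scale against KO, and neither passed the test in KO against control. Ctss, the protease cathepsin S, had 292 and 276 scaled CPM in KO + H-151, 162 and 142 in KO and 119 and 128 in control. Mpeg1, the pore-forming perforin-2, had 65.1 and 54.7 scaled CPM in KO + H-151, 31.3 and 26.3 in KO and 20.2 and 22.6 in control. These 2 genes rose at both steps, in KO + H-151 against KO by 0.90 ± 0.076 and 1.03 ± 0.11 and in KO against control by 0.30 ± 0.076 and 0.41 ± 0.11 on the log2 scale. The KO calls of both were lost without the first control library (Ctss adjusted p = 0.0776, Mpeg1 0.107) and without the first KO library (Ctss 0.139, Mpeg1 0.175).

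Cybb encodes the catalytic subunit of the phagocyte oxidase and is known as interferon-responsive. It had 68.7 and 64.0 scaled CPM in KO + H-151, 49.5 and 45.1 in KO and 22.1 and 20.5 in control. Its levels climbed at both steps without overlap, and most of the difference already separated KO from control. The log2 change was 1.12 ± 0.093 in KO against control (adjusted p = 7.30e-08, limma) and 0.48 ± 0.093 with H-151 against KO (adjusted p = 0.000606). Pld4, an exonuclease of endolysosomes, had only 30 and 24 reads in KO + H-151, 7 and 14 in KO and 9 and 17 in control, and passed no test (95% interval 0.021 to 1.05 on the log2 scale against KO, adjusted p = 0.0904).

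**Figure D2:**
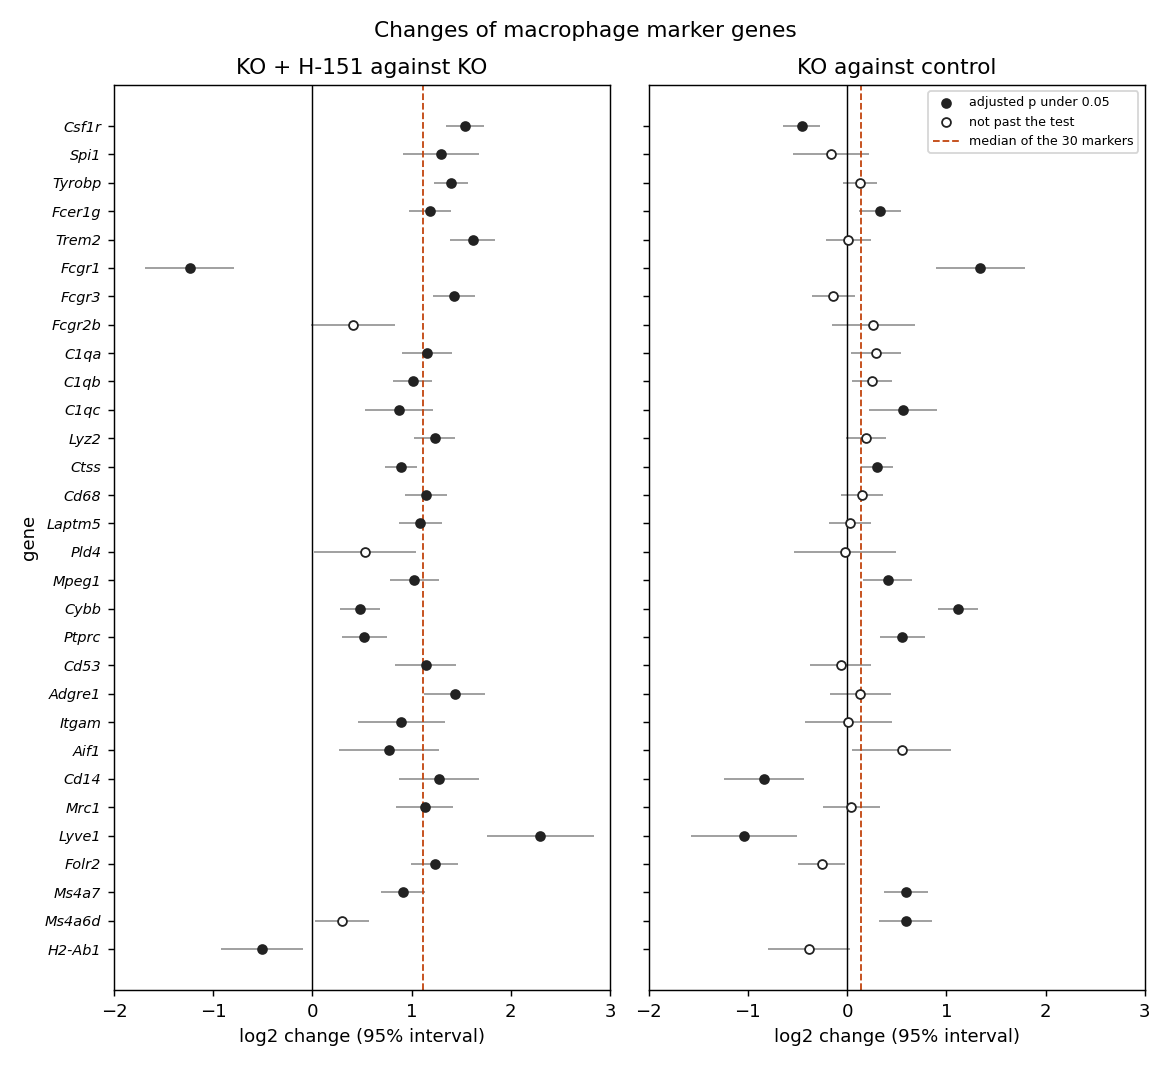
Log2 change of each marker on the log2(scaled CPM + 1) scale with its 95% interval, KO + H-151 against KO on the left and KO against control on the right. Filled points have an adjusted p under 0.05, and the dashed line is the median of the 30 markers, 1.11 on the left and 0.14 on the right.

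Surface and leukocyte markers rose with H-151 in all 6 genes analysed. Ptprc encodes CD45, the phosphatase on all white blood cells, and had 48.0 and 44.0 scaled CPM in KO + H-151, 33.6 and 29.8 in KO and 22.6 and 19.9 in control. It climbed at both steps, 0.56 ± 0.11 in KO against control (adjusted p = 0.000651, limma) and 0.52 ± 0.11 with H-151 against KO (adjusted p = 0.000867). Adgre1, the classical mouse macrophage antigen F4/80, had 30.2 and 26.4 scaled CPM in KO + H-151, 10.2 and 9.45 in KO and 9.97 and 7.86 in control. The tetraspanin gene Cd53 had 31.2 and 28.1 scaled CPM in KO + H-151, 11.8 and 14.0 in KO and 15.7 and 11.6 in control. Itgam, the integrin chain CD11b, had 7.58 and 5.63 scaled CPM in KO + H-151, 3.40 and 2.73 in KO and 2.49 and 3.60 in control. The KO and control libraries overlapped for these 3 genes, and KO + H-151 rose against KO by 1.44 ± 0.14 for Adgre1, 1.14 ± 0.15 for Cd53 and 0.90 ± 0.21 for Itgam on the log2 scale. Itgam against control lost its call without the first control library (adjusted p = 0.0655).

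Cd14, the co-receptor for bacterial lipopolysaccharide, had 7.51 and 9.19 scaled CPM in KO + H-151, 2.70 and 2.98 in KO and 6.91 and 4.97 in control. The KO libraries were the lowest, so Cd14 fell in KO against control (log2 -0.84 ± 0.19, adjusted p = 0.00270, limma) and rose with H-151 against KO (1.28 ± 0.19, adjusted p = 4.80e-05), and the fall did not pass without the first control library (-0.64, adjusted p = 0.0555). Aif1, the actin-binding protein IBA1, had 64 and 44 reads in KO + H-151, 16 and 21 in KO and 15 and 7 in control. Its difference between KO and control did not pass the test (log2 0.55 ± 0.24, adjusted p = 0.0881, limma). Its rise in KO + H-151 against KO (log2 0.77 ± 0.24, adjusted p = 0.0156, limma) did not pass without the first KO library (adjusted p = 0.119) or without the first KO + H-151 library (adjusted p = 0.156), or with DESeq2 (adjusted p = 0.0876).

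Resident and scavenger markers held the largest change of the panel. Mrc1, the mannose receptor CD206, had 82.3 and 56.8 scaled CPM in KO + H-151, 30.8 and 30.4 in KO and 32.4 and 27.3 in control. Folr2, a folate receptor of tissue-resident macrophages, had 33.972 and 36.2 scaled CPM in KO + H-151, 14.5 and 14.2 in KO and 17.0 and 17.7 in control. Both rose with H-151 against KO, Mrc1 by 1.13 ± 0.14 and Folr2 by 1.23 ± 0.11 on the log2 scale, and neither passed the test in KO against control (0.040 ± 0.14 and -0.26 ± 0.11). Folr2 exons overlap those of the antisense gene Gm10602, which had 2.16 and 2.06 scaled CPM in KO + H-151, 1.83 and 0.852 in KO and 2.49 and 2.16 in control.

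Lyve1, a hyaluronan receptor of perivascular macrophages and of lymphatic endothelium, had 6.99 and 5.94 scaled CPM in KO + H-151, 0.435 and 0.596 in KO and 3.20 and 1.30 in control. These were 107 and 95 reads in KO + H-151, 5 and 7 in KO and 45 and 18 in control, so the KO level rests on 12 reads in all. Lyve1 was lowest in KO, where it fell against control (log2 -1.04 ± 0.25, adjusted p = 0.00473, limma) and rose with H-151 to 12.5 times the KO level (log2 2.30 ± 0.25, adjusted p = 1.77e-06). The fall in KO was not past the test without the first control library (-0.60, adjusted p = 0.107) or without the first KO library (-0.96, adjusted p = 0.0615). Of the 7 endothelial genes analysed, 2 rose (Flt1 and Kdr) and 4 fell in KO against control, where 18.2% of all genes rose and 14.2% fell. In KO + H-151 against KO, 3 rose and 1 fell (Flt1), where 19.4% of all genes rose and 21.4% fell. Kdr was named after its values were seen. The sum of the 7 genes was 25.02 and 21.3 scaled CPM in KO + H-151, 21.2 and 24.6 in KO, and 23.4 and 21.1 in control. Pecam1, lowest in KO like Lyve1, had 4.25 and 3.94 scaled CPM in KO + H-151, 0.348 and 0.255 in KO and 2.85 and 2.74 in control. Cdh5 had 2.16 and 2.75 scaled CPM in KO + H-151, 0.348 and 0.426 in KO and 1.78 and 2.38 in control, also lowest in KO. The KO levels rest on 4 and 3 reads for Pecam1 and on 4 and 5 for Cdh5. Flt1, a receptor for vascular endothelial growth factor, had 3.59 and 2.81 scaled CPM in KO + H-151, 8.01 and 12.6 in KO and 3.92 and 3.24 in control, highest in KO. The part of endothelial cells in the Lyve1 result was not tested.

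Ms4a7 and Ms4a6d, membrane proteins that mark macrophage subsets in mouse tissue, were already higher in KO. Ms4a7 had 73.2 and 60.2 scaled CPM in KO + H-151, 35.2 and 34.6 in KO and 23.9 and 21.8 in control. Ms4a6d had 54.0 and 40.5 scaled CPM in KO + H-151, 38.0 and 37.8 in KO and 27.6 and 22.3 in control. In KO against control they rose by 0.59 ± 0.10 and 0.59 ± 0.13 on the log2 scale (adjusted p = 0.000316 and 0.00190, limma). In KO + H-151 against KO, Ms4a7 rose further (0.91 ± 0.10, adjusted p = 2.81e-06) and Ms4a6d did not pass the test (0.30 ± 0.13, adjusted p = 0.0761), though it did without the second KO + H-151 library (0.50, adjusted p = 0.00264). The related gene Ms4a6c had 15.2 and 9.76 scaled CPM in KO + H-151, 14.3 and 12.008 in KO and 6.55 and 6.05 in control.

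H2-Ab1, the beta chain of an MHC class II molecule with which macrophages and other cells present antigen, went the other way. It had 3.92 and 3.13 scaled CPM in KO + H-151, 6.44 and 4.51 in KO and 6.84 and 7.93 in control. It was lowest in KO + H-151 and highest in control, with no overlap between groups. H2-Ab1 fell in KO + H-151 against control (log2 -0.89 ± 0.19, adjusted p = 0.00305, limma). Against KO it passed the test narrowly (-0.51 ± 0.19, adjusted p = 0.0471), and 4 of the 6 libraries were each needed for that call: without the first and the second control library the adjusted p was 0.059 and 0.0602, without the first KO library 0.362, and without the second KO + H-151 library 0.217. It was also lost under total-count scaling (adjusted p = 0.133), in a fit of these 2 groups (0.064), with an untrended prior variance (0.0644) and with DESeq2 (0.117). Of 5 other genes of the MHC class II pathway analysed, 1 rose (Rfxank) and 1 fell (Rfx5) in KO + H-151 against KO, shares near the 19.4% and 21.4% of all genes. Rfx5, a subunit of the complex that binds class II promoters, had 17.2 and 16.6 scaled CPM in KO + H-151, 35.4 and 36.1 in KO and 16.5 and 19.7 in control.

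**Figure D3:**
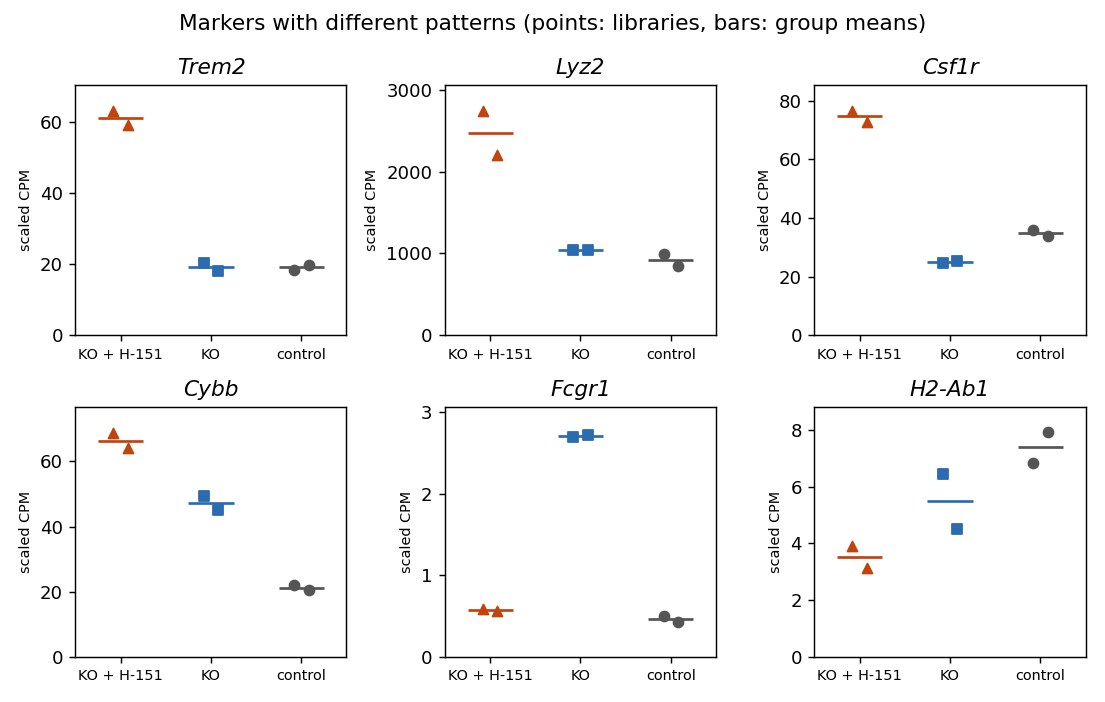
Level in scaled CPM of 6 markers with different patterns over the 3 groups, 1 point per library and a bar at the mean of each group (n = 2), each panel starting at 0. Trem2, Lyz2 and Csf1r are highest in KO + H-151, Cybb climbs at both steps, Fcgr1 is highest in KO, and H2-Ab1 is highest in control.

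Whether the markers shifted in parallel was described with ratios of group means. The linear ratio of KO + H-151 to KO had a median of 2.21 over the 30 genes, with quartiles of 1.89 and 2.56, a lowest value of 0.212 for Fcgr1 and a highest of 12.5 for Lyve1. The ratio of KO + H-151 to control had a median of 2.38, with quartiles of 2.15 and 2.85, and ran over a range of 0.477 for H2-Ab1 to 4.41 for Aif1. The ratio of KO to control had a median of 1.11 and quartiles of 0.951 and 1.33, from 0.229 for Lyve1 to 5.83 for Fcgr1. The SD of the log2 ratios over the 30 genes was 0.90 for KO + H-151 over KO, 0.75 for KO over control and 0.56 for KO + H-151 over control. The extremes Fcgr1 and Lyve1 rest on few reads and enter these SDs. Fcgr1 had 9 and 9 reads in KO + H-151, and Lyve1 had 5 and 7 in KO. Both KO + H-151 libraries lay above both KO libraries in 27 of 30 markers, where 35.5% of all genes did so. KO libraries lay above the control libraries in 16 markers (33.4% of all genes), below them in 5 (33.5% of all genes) and overlapped them in 9.

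Summed over the 30 markers, levels were 4897 and 4035 scaled CPM in KO + H-151, 2007 and 1992 in KO, and 1852 and 1601 in control. The mean sum in KO + H-151 was 2.23 times that in KO, and the mean sum in KO was 1.16 times that in control. Without Lyz2 these ratios were 2.09 and 1.18. The libraries of a group also differed across the markers. In KO + H-151 the first library exceeded the second in 27 of 30 markers, which is 90% against 50.2% of all genes tested, by a median of 0.20 on the log2 scale. In control the first library exceeded the second in 23 of 30, 76.7% against 49.4% of all genes, by a median of 0.24. In KO the 2 libraries differed little, with the first higher in 15 of 30 and a median difference of 0.0010.

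The 9 markers higher in KO than in control were Fcer1g, Fcgr1, C1qc, Ctss, Mpeg1, Cybb, Ptprc, Ms4a7 and Ms4a6d, and the 3 lower were Csf1r, Cd14 and Lyve1. Set against control, KO + H-151 had 8 of these 9 and 2 of these 3 past the test and higher, without Fcgr1 and Cd14. In that comparison 26 of all 30 markers and 11.5% of all genes were higher. The 9 and the 3 were picked against the same control libraries, so these counts are not independent of that choice. The Fcer1g call in KO was lost without the second control library (log2 0.21, adjusted p = 0.224, limma) and without the second KO library (0.22, adjusted p = 0.253). Under total-count scaling 4 of the 9 calls in KO were lost, those of Fcer1g, C1qc, Ctss and Mpeg1, and Fcgr3, Folr2 and H2-Ab1 passed as lower. The same 4 calls were lost with an untrended prior variance.

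Promoter sequences of 3 markers with different patterns are shown, since the panel splits by its level in KO. They come from RefSeq (build GRCm38.p6) and run from 250 bases before to 50 bases after the start given there. They read 5′ to 3′ on the strand of the gene, and capitals mark the motif matches. Trem2 (chr17:48346151-48346450, plus strand) was near its control level in KO, Cybb (chrX:9469275-9469574, minus strand) rose at both steps and Fcgr1 (chr3:96293920-96294219, minus strand) was highest in KO. The annotation used for exon overlaps places Cybb at 9435252 to 9487771, so the Cybb window lies inside that gene and not at its start.
Trem2: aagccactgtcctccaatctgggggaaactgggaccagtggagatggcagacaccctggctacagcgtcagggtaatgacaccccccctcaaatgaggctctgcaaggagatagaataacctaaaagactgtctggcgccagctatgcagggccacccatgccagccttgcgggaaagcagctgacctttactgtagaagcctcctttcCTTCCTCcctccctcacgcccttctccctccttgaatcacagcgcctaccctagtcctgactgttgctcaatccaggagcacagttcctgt
Cybb: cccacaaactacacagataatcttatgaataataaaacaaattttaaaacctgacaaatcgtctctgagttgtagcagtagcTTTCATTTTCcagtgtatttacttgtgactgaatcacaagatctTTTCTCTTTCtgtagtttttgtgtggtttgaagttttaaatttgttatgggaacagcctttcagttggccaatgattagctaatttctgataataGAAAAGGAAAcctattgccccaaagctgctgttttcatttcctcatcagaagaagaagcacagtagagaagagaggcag
Fcgr1: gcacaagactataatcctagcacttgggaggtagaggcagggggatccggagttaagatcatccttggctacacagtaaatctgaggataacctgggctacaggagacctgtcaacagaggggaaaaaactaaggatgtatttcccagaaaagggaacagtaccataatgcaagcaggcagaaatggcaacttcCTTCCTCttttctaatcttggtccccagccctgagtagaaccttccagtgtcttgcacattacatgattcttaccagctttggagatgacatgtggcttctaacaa
The motifs searched on both strands, with overlaps allowed, were the PU.1 core GAGGAAG and the core of the interferon-stimulated response element (GAAA and GAAA with any 2 bases between). Capitals in Trem2 mark a PU.1 core on the opposite strand, 41 bases before the start. In Cybb they mark 3 matches to the interferon-stimulated core, 168, 124 and 29 bases before the start, those at 168 and 124 on the opposite strand. In Fcgr1 they mark a PU.1 core on the opposite strand, 56 bases before the start. Of the 21 markers with a promoter entry, 10 held the PU.1 core (C1qc, Cd53, Ctss, Fcgr1, Fcgr3, Itgam, Laptm5, Mrc1, Pld4 and Trem2), where 16% of the 10290 genes in the table with a promoter entry and 13.6% of 32851 promoters did. The interferon-stimulated core stood in 3 (Aif1, Ctss and Cybb), where 3.84% of those genes and 3.44% of all promoters held it. A match describes the letters of the window and no factor's binding was measured.

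Other genes of macrophages and leukocytes were compared from a list that does not overlap the panel. Like the panel, it was chosen with earlier results of these data known. Of 64 such genes tested, 49 rose and 4 fell in KO + H-151 against KO (19.4% and 21.4% of all genes), with a median log2 change of 0.97. Between KO and control the shares were near those of all genes, with 15 higher and 10 lower in KO (18.2% and 14.2% of all genes) and a median of -0.0085. Maf, a transcription factor also made by macrophages, had 689 and 651 scaled CPM in KO + H-151, 265 and 258 in KO and 514 and 496 in control, lowest in KO like Csf1r. The 4 genes that fell were Tlr2, Irf5, Mmp13 and Spp1, of which Irf5, Mmp13 and Spp1 were named after their values were seen. Tlr2, a receptor for bacterial lipoproteins, had 12.5 and 8.32 scaled CPM in KO + H-151, 105 and 109.8 in KO and 12.3 and 11.7 in control, highest in KO like Fcgr1.

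Genes known to rise or fall with macrophage activation were set beside the panel. Of 19 listed genes 11 were in the table, and 10 of these rose in KO against control, where 18.2% of all genes did. In KO + H-151 against KO 9 fell and 1 rose (Clec10a, named after its value was seen), where 21.4% of all genes fell and 19.4% rose. Acod1, Nos2, Cxcl2 and Slamf8 passed the filter only through KO, and Clec10a only through KO + H-151, the group where each was highest. The calls of these genes are no independent evidence of those differences. Acod1, the itaconate-making enzyme of stimulated macrophages, had 0.719 and 0 scaled CPM in KO + H-151, 38.7 and 45.8 in KO and 0.0710 and 0 in control. Ccl4, a chemokine of activated myeloid cells, had 9.21 and 8.07 scaled CPM in KO + H-151, 60.4 and 64.6 in KO and 1.78 and 2.45 in control. Neither followed the order of Csf1r or Lyz2.

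Of 9 growth factors and attractants of macrophages, 1 rose (Cxcl12) and 6 fell in KO + H-151 against KO, where 19.4% of all genes rose and 21.4% fell. Against control, KO had 5 higher and 1 lower (Cxcl12), where 18.2% of all genes rose and 14.2% fell. The CSF1R ligands Csf1 (-0.17 ± 0.066, adjusted p = 0.0509, limma) and Il34 (0.0043 ± 0.10, adjusted p = 0.978) did not pass the test in KO + H-151 against KO. Ccl2, which recruits monocytes through CCR2, had 73.8 and 47.3 scaled CPM in KO + H-151, 1830.2 and 1684 in KO and 102 and 101 in control. Ccl7, a chemokine of the same receptor, had 155 and 108 scaled CPM in KO + H-151, 1799 and 1751 in KO and 206 and 216 in control. Both fell in KO + H-151 against KO, with log2 changes of -4.87 ± 0.13 and -3.77 ± 0.11, while the markers Csf1r and Trem2 rose.

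**Figure D4:**
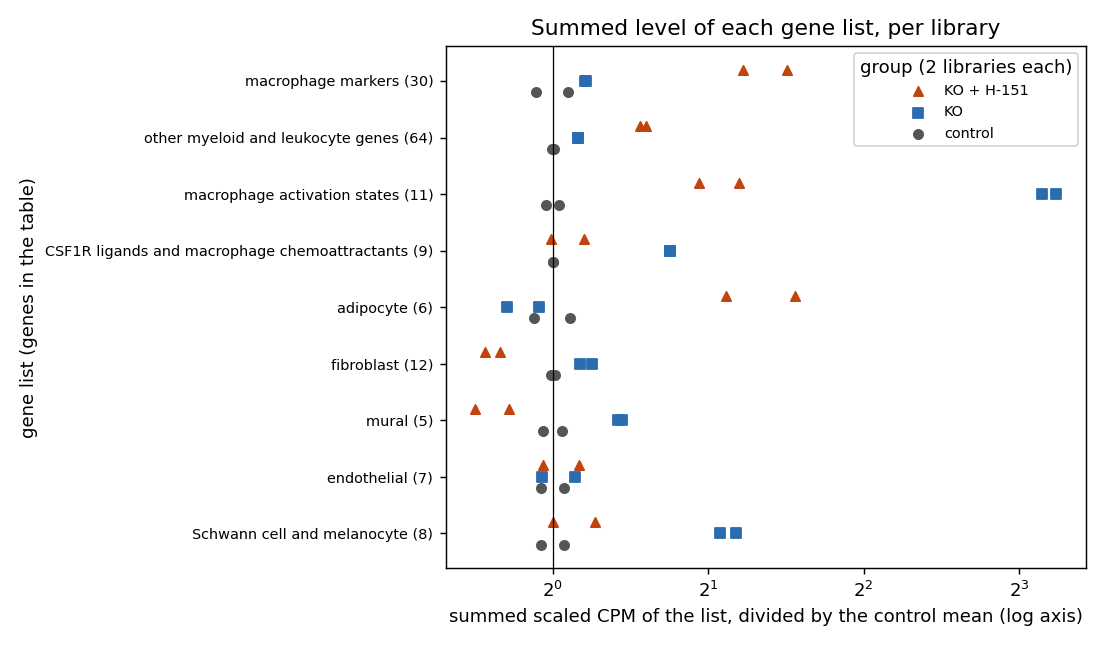
Summed scaled CPM of each gene list in each library, divided by the mean of the control libraries, on a log axis, with the number of genes summed in brackets and 2 libraries for each group (triangles KO + H-151, squares KO, circles control). The sums of the macrophage markers and the adipocyte genes are highest in KO + H-151, and that of the activation genes is highest in KO. The sums of the fibroblast genes, mostly collagen, and of the mural genes are lowest in KO + H-151.

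Markers of other cell types were set beside the panel. Adipocyte genes shared its direction: all 6 rose in KO + H-151 against KO (19.4% of all genes), with sums of 4232 and 3120 scaled CPM in KO + H-151, 1174 and 1355 in KO, and 1556 and 1321 in control. Lpl, lipoprotein lipase, had 2403 and 1991 scaled CPM in KO + H-151, 729 and 812 in KO and 1036 and 926 in control. Adipoq, the adipocyte hormone adiponectin, had 146 and 118 scaled CPM in KO + H-151, 40.7 and 44.4 in KO and 50.6 and 44.6 in control. Macrophages also express Lpl, Pparg and Fabp4 of this list. Cidec, named after its values were seen, passed the filter only through KO + H-151, where it was highest. Of 12 fibroblast genes, 4 rose and 7 fell in KO + H-151 against KO (19.4% and 21.4% of all genes), with sums of 27755 and 25926 scaled CPM in KO + H-151, 39672 and 41775 in KO, and 34772 and 35341 in control. Collagen genes, led by Col1a2, made up most of these sums. Lum and Thy1, named after their values were seen, were highest in KO + H-151. Lum had 119 and 113 scaled CPM in KO + H-151, 90.1 and 95.7 in KO and 80.8 and 69.2 in control. The part of these shifts in the rise of the macrophage markers was not tested. Few markers of other white blood cells were analysed. They included 3 of 12 T cell genes (3.40 and 3.002 scaled CPM in KO + H-151, 6.97 and 7.84 in KO, 3.20 and 3.96 in control). Most of the KO sum was Trac, with 4.70 and 5.54 scaled CPM there. Lck passed the filter only through KO, and Cd4 only through KO + H-151, the group where each was highest. Of 7 B cell genes 1 was analysed, Pax5, with 19 and 16 reads in KO and 0 reads in KO + H-151 and control. Pax5 thus passed the filter only through KO. The rest were 2 of 8 mast cell genes, 2 of 10 neutrophil genes and 2 of 9 dendritic cell genes. The mast cell sum was 1.18 and 1.001 scaled CPM in KO + H-151, 14.2 and 12.3 in KO and 0.712 and 1.30 in control. Nearly all of the KO sum was Hdc, with 12.8 and 11.67 scaled CPM there, and Hdc passed the filter only through KO. The other mast cell gene, Kit, passed no test. The neutrophil sum was 8.23 and 4.07 in KO + H-151, 2.87 and 3.24 in KO and 2.42 and 3.39 in control. The neutrophil gene S100a8 had 6.01 and 2.56 scaled CPM in KO + H-151, 1.39 and 1.53 in KO and 1.42 and 2.02 in control. The dendritic cell sum was larger, 130.8 and 125.7 scaled CPM in KO + H-151, 159.8 and 170.3 in KO and 193.8 and 178.6 in control, and nearly all of it was Fscn1, the actin-bundling protein fascin, with 129.6 and 124 in KO + H-151, 159 and 169.6 in KO and 192 and 177 in control.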

How the data were processed

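Messenger RNA of 6 libraries was analysed, 2 each of KO + H-151, KO and control cells. Per the labels' protocols, RNA was extracted with an automated kit and 3′-end tag libraries were prepared with a QuantSeq kit. The submitters' processing notes name STAR 2.5.3a, featureCounts, edgeR and the genome build mm10; the annotation, strand setting and filters are not given in the sources used here. The values deposited by the authors are a scaled signal, CPM with an adjusted library size: in every column 100% of values were whole multiples of 1 step (tolerance 0.0006), and columns summed to different totals, which plain CPM does not. The design written for CPM was kept, and the step gave the reads per gene (median 246 to 336). Marker genes and lists were chosen with earlier results of these data known.

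Values were transformed to log2(scaled CPM + 1), and a gene was tested if 2 or more libraries reached 1 scaled CPM (13648 genes, leaving out 58). A model with 1 mean per group was fitted over all 6 libraries with limma 3.58.1 in R 4.3.3, with a trend in the prior variance and 3 residual degrees of freedom (15.7 after moderation), and p-values were adjusted over all genes with the Benjamini-Hochberg method (threshold 0.05). The fit was tested on simulated data with the same spread setting for all genes, in which only genes above a floor in level were changed. That test does not cover markers with few reads. Ratios are of group means on the linear scale. All panel members are named, and of other lists up to 3 genes with the smallest p in KO + H-151 against KO and the 1 with the highest mean. A gene that this rule names is not reported here. Alternatives were pseudocounts of 0.25 and 4, no filter, median and total-count scaling, a fit of the 2 groups compared, no variance trend, a replicate block, each library left out, and edgeR 4.0.16 and DESeq2 1.42.0 on the recovered reads. Exon overlaps are from a GRCm38 annotation. With 2 libraries per group no sample could be tested as an outlier.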

Additional observations from a re-analysis of the deposited data

How the results depend on the processing

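Of 480 marker values recomputed per comparison (30 genes under 16 alternatives), 463 kept direction and call in KO + H-151 against KO, 476 in KO + H-151 against control and 424 in KO against control, where 19 reversed and in the others 0 did. Leaving out 1 library gave 24 to 27 markers higher and 1 to 2 lower in KO + H-151 against KO, 25 to 26 higher in KO + H-151 against control, and 6 to 12 higher and 1 to 3 lower in KO against control. The markers lower in KO + H-151 against KO were 1, not 2, under total-count scaling, a fit of the 2 groups, no trend and DESeq2. In KO against control 5 markers were higher under total-count scaling and under no trend, and 6 were lower under total-count scaling. That scaling moved the median of all genes to -0.16 in KO against control, and for KO + H-151 against KO the median became 0.18. In KO against control it turned the log2 changes of Tyrobp (-0.032), Trem2 (-0.14), Cd68 (-0.010), Laptm5 (-0.13), Adgre1 (-0.015), Itgam (-0.11) and Mrc1 (-0.12). Leaving out 1 library, changes in KO against control that crossed 0 ran from -0.44 to 0.11 for Spi1, -0.069 to 0.096 for Trem2, -0.11 to 0.17 for Laptm5, -0.25 to 0.20 for Pld4, -0.27 to 0.14 for Cd53, -0.021 to 0.29 for Adgre1, -0.19 to 0.21 for Itgam and -0.079 to 0.16 for Mrc1, none of which passed the test in the main analysis. Over all genes, those lower in KO against control numbered 1938, 4054 under total-count scaling, 1217 by DESeq2 and 1165 to 2186 with 1 library left out. Under total-count scaling 4768 genes were higher and 1930 lower in KO + H-151 against KO. In KO + H-151 against control 937 were lower under no trend, and leaving out 1 library gave 951 to 1373 higher and 924 to 1499 lower. On the recovered reads edgeR called 2614 genes higher and 2899 lower in KO + H-151 against KO, 2423 and 1851 in KO against control, and 1626 and 1585 in KO + H-151 against control. With the replicate number as a block, 11 markers were higher in KO against control (C1qa and C1qb added) and 26 in KO + H-151 against KO (Ms4a6d added), and the other counts of markers did not change; libraries with the same number did not deviate together in every pair of groups (correlations -0.068 between KO and control, 0.15 between KO + H-151 and control, and -0.13 between KO + H-151 and KO). The cause of these shifts was not tested. Markers with few reads, such as Fcgr1, Lyve1, Pld4 and Aif1, are the least precise.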
